A study of Mus musculus with 12 samples.

Results

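CD4+ T cells given plate-bound anti-CD3 with soluble anti-CD28 (CD3_CD28, 3 libraries) were compared with cells stimulated in the other ways of the series, CD3 and CD3_CD28_ICOS, pooled (6 libraries). These 9 libraries were taken by their labels from the 12 of the series. The members are 9826 of the 17203 genes listed, those that reached 10 CPM in 3 or more of all 12 libraries, where CPM is the number of reads per 1000000 assigned reads. The question was which genes set the CD3_CD28 cells apart from both other stimulated groups.

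Primary CD4+ T cells of C57BL/6 mice were analysed by RNA sequencing, the culture medium being RPMI-1640 plus fetal bovine serum. Unstimulated cells were taken fresh, without activation. CD3 cells lay on plate-bound anti-CD3, an antibody against the T cell receptor complex, for 72 h. CD3_CD28 cells received plate-bound anti-CD3 and soluble anti-CD28 for 72 h. CD3_CD28_ICOS cells were given soluble antibodies against CD3, CD28 and ICOS, also for 72 h. CD3_CD28_ICOS therefore shared anti-CD28 with CD3_CD28 and differed from it in the format of anti-CD3 and in anti-ICOS, which cannot be told apart. CD3 differed from CD3_CD28 in lacking anti-CD28. Each group held 3 libraries. Whether these were separate animals or separate cultures is not in the labels. The p-values therefore reflect only how libraries vary, and that variation may be technical. Transduction is mentioned in the series' design text and in no sample label.

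T cells need a signal through the antigen receptor and a second, costimulatory signal for full activation, and CD28 is the main receptor for the second. CD28 signalling is known to raise interleukin-2 production, glucose uptake and survival proteins of the BCL2 family. Interleukin-2 in turn acts through STAT5, a transcription factor. ICOS is a relative of CD28 that is known for its part in follicular helper T cells, the cells that help B cells.

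Depth was 22.3 to 25.5 in CD3_CD28, 11.4 to 26.5 in CD3 and 26.7 to 37.5 in CD3_CD28_ICOS, in units of 1000000 assigned reads and estimated from the steps between low values. The CD3_CD28 libraries correlated with each other at 0.987 to 0.992 across genes on the log2 scale. The first principal component of the 9 stimulated libraries held 67.2% of the variance and placed the CD3_CD28 libraries at 50.6 to 60.4 and the other 6 between -41.9 and -17.3. CD3_CD28 replicate 1 stood apart in its RNA: the ribosomal RNA gene CT010467.1 took 11.8% of its reads against 1.60% and 2.74% in replicates 2 and 3, and it held the lowest value of the 3 in 1973 of the 2876 genes called lower below. Unstimulated replicate 3 was high in Fos, an early response gene, at 1275 CPM, where replicates 1 and 2 had 70.7 and 30.9 CPM. T cell genes were present in all groups. Cd4 stood at 859, 1018 and 1063 CPM in CD3_CD28, within the range of the other 6 (528 to 1178 CPM).

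The pooled difference was taken as CD3_CD28 minus the mean of CD3 and CD3_CD28_ICOS on the log2(CPM + 1) scale. The added 1 makes differences of low genes look smaller than they were. In limma's test at an adjusted p of 0.05, 2138 genes were higher in CD3_CD28 (21.8% of those tested) and 4418 were lower (45.0%). Against CD3 alone, 1837 genes were higher (18.7%) and 4487 lower (45.7%). Against CD3_CD28_ICOS alone, 2403 were higher (24.5%) and 3787 lower (38.5%). A gene was called peculiar to CD3_CD28 where it passed against each of the other groups in the same direction. There were 1338 such genes higher in CD3_CD28 (13.6%) and 2876 lower (29.3%). A further 274 genes (2.79%) passed against both in opposite directions, with CD3_CD28 between the other groups. Both comparisons share the CD3_CD28 libraries. "Called" in the following means called against both in the same direction, and each log2 difference given is that of the pooled comparison unless another is named.

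The balance of higher and lower calls depends on scaling. The median log2 difference over all 9826 genes was -0.19, so a gene with a difference of 0 lay above the middle of these differences. With libraries scaled by the median of ratios that median became 0.03 and the calls were 2351 higher and 1733 lower. With quantile normalization the calls were 1973 higher and 1993 lower, and with the ribosomal RNA gene left out 1590 and 2629. The share of calls that were higher was thus 31.8% on CPM and 57.6%, 49.7% and 37.7% under these alternatives. Calls that held under all 4 scalings numbered 1323 higher (13.5% of genes tested) and 1632 lower (16.6%). Without CD3_CD28 replicate 1 there were 1352 higher and 2333 lower calls. With that library and Unstimulated replicate 3 both left out there were 1427 and 2455.

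Most differences were small, and a minority were large. The called higher genes had a median of 0.61 for the smaller of their log2 differences from CD3 and from CD3_CD28_ICOS, and the called lower genes of 0.59. Differences of at least 1 log2 unit against each group were found for 347 higher genes (3.53%) and 534 lower genes (5.43%). At 2 log2 units 95 and 125 remained, and at 3 log2 units 27 and 58. The 3 CD3_CD28 values lay above all other 6 in 1522 genes (15.5%) and below them in 3075 (31.3%). This held for 1284 of the 1338 called higher genes and 2705 of the 2876 called lower genes. A gene could also enter the tested set through the group where it was high: 232 genes reached the 10 CPM limit in 3 libraries only with the help of CD3_CD28, and 173 of them were called higher. Another 584 reached it only with the help of CD3 and CD3_CD28_ICOS, and 271 of them were called lower. For these genes the filter selected the difference, so their values are given as a description with no p. Among the 9594 genes that did not need CD3_CD28 to pass, 1165 were higher (12.1%), and among the 9242 that did not need the other groups 2605 were lower (28.2%).

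**Figure D1:**
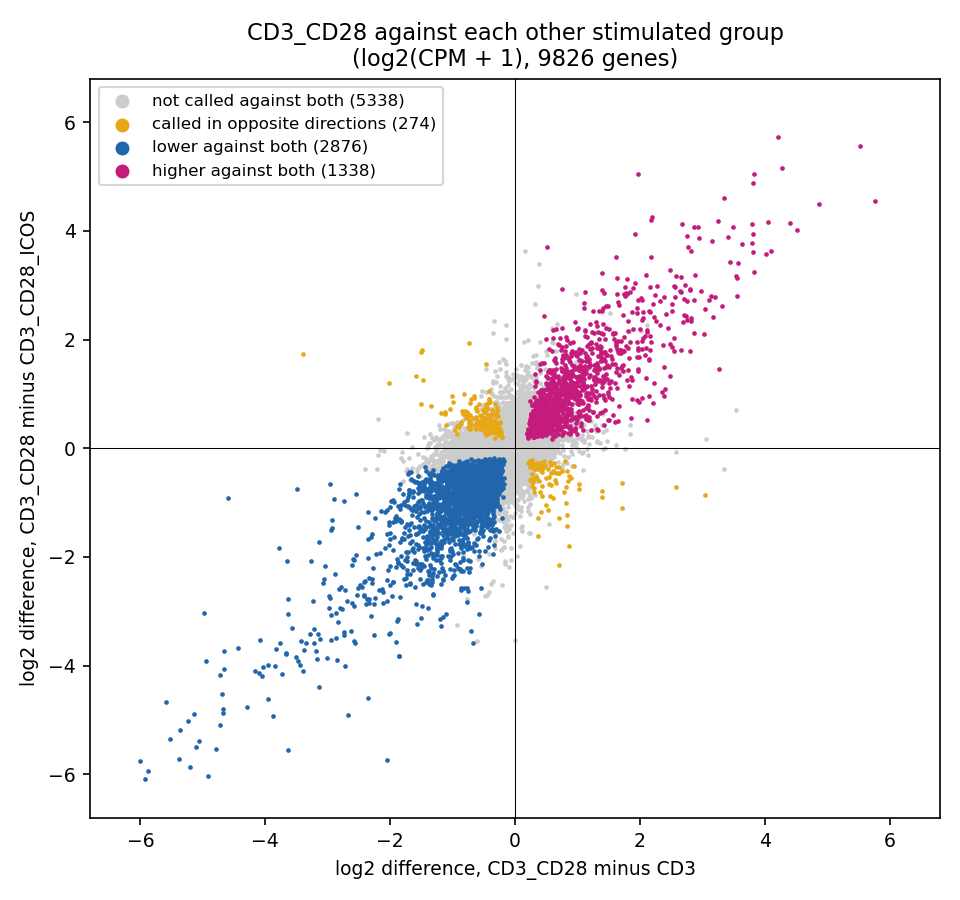
Log2 difference of CD3_CD28 from CD3 (horizontal) and from CD3_CD28_ICOS (vertical) on the log2(CPM + 1) scale, 1 point per gene for 9826 genes. The 1338 genes called higher against both lie in the upper right and the 2876 called lower against both in the lower left; the axes share the CD3_CD28 libraries, so the points follow the diagonal in part by construction.

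A set of 3 genes reached 10 CPM in every CD3_CD28 library while staying under 1 CPM in all 6 other stimulated libraries. Il24, a cytokine of the interleukin-10 family, was at 105, 20.9 and 43.7 CPM in CD3_CD28, at 0, 0.0759 and 0 CPM in CD3 and at 0 in each CD3_CD28_ICOS library (chromosome 1, 130882074 to 130887455 of mm10). That was a log2 difference of 5.53 ± 0.36 (SE), and the CD3_CD28 libraries themselves spanned a wide range. Notch3, a receptor of the Notch family, was at 15.9, 17.05 and 19.1 CPM in CD3_CD28 and at 0.0266 to 0.4898 CPM in the other 6, a log2 difference of 3.88 ± 0.23 (SE). Tgm1, a transglutaminase, was at 29.1, 16.02 and 15.1 CPM and at 0 to 0.569 CPM in the other 6. Unstimulated cells were low as well: the highest Unstimulated value of the 3 genes was 2.98 CPM, of Tgm1. All 3 entered the tested set only through CD3_CD28, so being high there was a condition of their being tested.

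The largest higher differences by the naming rule, 13 of its 14, were those of Il24, Nos2, C3, Lama5, Mt2, Tgm2, Lta, Cdkn1a, Ppp1r3b, Lif, Dnm1, Smtnl2 and Mt1. The naming rule required the CD3_CD28 values to lie above the other 6, so that separation is no result. All 13 kept their call under the 4 scalings. Of these, Il24, Nos2, C3, Lama5, Mt2, Dnm1, Smtnl2 and Mt1 passed the filter only through CD3_CD28. Several are secreted or act outside the cell. Lta, lymphotoxin alpha, a cytokine of the TNF family, was at 189, 163 and 211 CPM in CD3_CD28, 5.001, 9.19 and 8.101 CPM in CD3 and 10.95, 9.79 and 11.04 CPM in CD3_CD28_ICOS, a log2 difference of 4.27 ± 0.15 (SE, limma adjusted p = 7.25e-10). The 6 other libraries lay at or below the Unstimulated level of 12.7, 15.7 and 12.1 CPM. Lif, leukaemia inhibitory factor, a cytokine of the interleukin-6 family, was at 183, 117 and 151 CPM against 8.42, 15.8 and 9.98 CPM in CD3 and 11.5, 10.2 and 8.68 CPM in CD3_CD28_ICOS, a log2 difference of 3.69 ± 0.24 (SE, limma adjusted p = 7.3e-08). Lif was thus raised about equally over both other groups (3.63 and 3.75 log2 units).

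The complement component C3 was at 119.97, 107 and 87.3 CPM in CD3_CD28 and at 1.25 to 11.6 CPM in the other 6, a log2 difference of 4.68 ± 0.52 (SE). Lama5, a laminin chain of basement membranes, was at 129, 71.2 and 105 CPM and at 1.28 to 5.16 CPM in the other 6. Unstimulated cells held little of Lama5, under 1 CPM in each library, and 7.08 to 23.9 CPM of C3.

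Enzymes made up another group. Tgm2, tissue transglutaminase, which cross-links proteins, was at 933, 753 and 847 CPM in CD3_CD28, at 29.98, 62.6 and 31.4 CPM in CD3 and at 22.4, 101 and 43.9 CPM in CD3_CD28_ICOS, a log2 difference of 4.27 ± 0.43 (SE, limma adjusted p = 1.57e-05). Nos2, the inducible nitric oxide synthase, was at 71.3, 101 and 68.5 CPM in CD3_CD28, at 0.263, 0.455 and 0.716 CPM in CD3 and at 1.36, 7.25 and 1.02 CPM in CD3_CD28_ICOS. All 3 Unstimulated libraries were at 0 for Nos2, and its log2 difference was 5.16 ± 0.36 (SE). For both genes CD3_CD28_ICOS replicate 2 was the highest of the other libraries, and it stayed far below CD3_CD28. Ppp1r3b, a subunit that directs a phosphatase to glycogen, was at 227, 215 and 162 CPM against 5.94 to 40.00 CPM. Dnm1, a dynamin, reached 45.4, 47.4 and 38.5 CPM against 0.213 to 5.35 CPM.

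**Figure D2:**
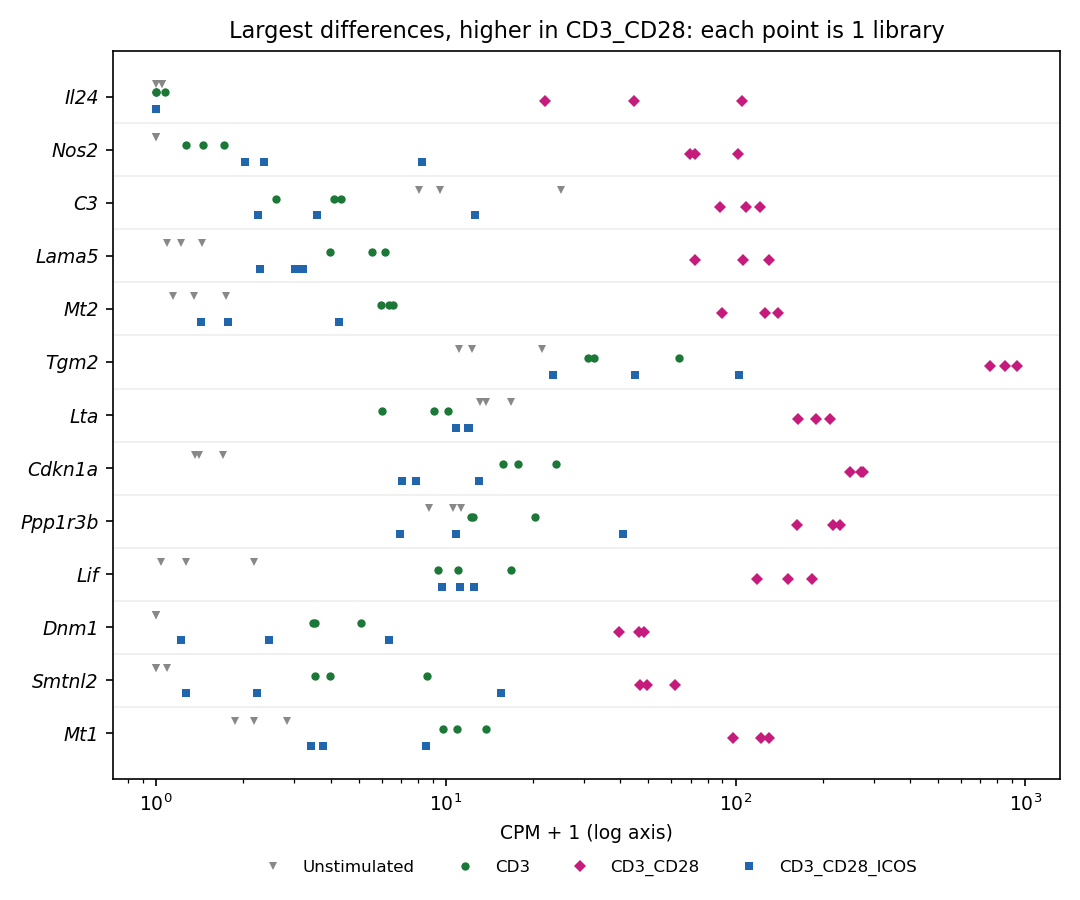
CPM + 1 on a log axis of 13 genes with the largest higher differences, 1 point per library, with the 4 groups in separate rows within a gene. In each gene the 3 CD3_CD28 points lie to the right of the 6 points of CD3 and CD3_CD28_ICOS, as the naming rule required. In Nos2 and Smtnl2 CD3_CD28_ICOS replicate 2 is the nearest of those 6 points.

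Metallothioneins, small proteins that bind zinc and copper, were among the largest differences. Mt2 (chromosome 8, 94172664 to 94173569 of mm10) was at 126, 88.7 and 139 CPM in CD3_CD28, 5.35, 4.97 and 5.58 CPM in CD3 and 0.426, 3.29 and 0.776 CPM in CD3_CD28_ICOS. Mt1, its neighbour (chromosome 8, 94179082 to 94180328), was at 121, 97.02 and 129, 9.91, 12.7 and 8.74 and 2.42, 7.51 and 2.75 CPM in the same groups. The log2 differences were 4.97 ± 0.29 and 3.98 ± 0.25 (SE), and both genes passed the filter only through CD3_CD28. CD3 stood between CD3_CD28 and Unstimulated cells, which held at most 1.82 CPM of either gene. Of the 11 tested genes of the metallothionein and zinc transporter list, 8 were higher and 0 lower, beside 13.6% and 29.3% of all genes tested, with a median log2 difference of 0.64 against -0.19. Without Mt1 and Mt2 the count was 6 of 9 and the median 0.58. The other 6 higher members were zinc transporters, among them Slc39a14, an importer, at 60.7, 69.2 and 56.6 CPM against 19.8 to 25.9 CPM. Slc30a1, which exports zinc at the cell surface, was also higher.

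The start regions of both metallothionein genes are shown because these neighbours moved together and metallothioneins are known to be switched on through short metal response elements. The windows are from RefSeq (GRCm38.p6, the assembly of mm10), on the plus strand, from 250 bases before the RefSeq start to 30 bases from it. Capitals mark matches to TGCACNC or TGCGCNC on either strand.
Mt2 (chr8:94172368-94172647): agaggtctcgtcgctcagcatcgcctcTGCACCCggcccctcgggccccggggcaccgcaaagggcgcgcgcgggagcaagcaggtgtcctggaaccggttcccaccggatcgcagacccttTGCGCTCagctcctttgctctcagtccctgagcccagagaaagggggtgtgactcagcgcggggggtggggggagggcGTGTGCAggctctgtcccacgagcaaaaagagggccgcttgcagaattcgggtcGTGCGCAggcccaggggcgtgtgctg
Mt1 (chr8:94178839-94179118): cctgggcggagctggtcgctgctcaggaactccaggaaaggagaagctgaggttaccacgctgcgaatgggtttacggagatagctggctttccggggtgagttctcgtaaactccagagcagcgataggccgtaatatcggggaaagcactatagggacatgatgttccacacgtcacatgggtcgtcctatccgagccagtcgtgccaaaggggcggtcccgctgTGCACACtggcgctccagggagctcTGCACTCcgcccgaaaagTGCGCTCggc
Mt2 held 4 matches, beginning at bases -223, -128, -50 and 5 from the RefSeq start counted as 1. Mt1 held 3, beginning at bases -23, 3 and 21. For Mt2 the bases after the RefSeq start were not found in an annotated transcript of the gene, and for Mt1 they were. By the gene coordinates given above Mt2 begins at 94172664, after the end of its window, so all 4 matches lie before that start. Such short letters are common. At least 1 match was found in 33.9% of the 9469 windows of tested genes (7402 genes had a window), in 35.9% of the 387 windows of genes higher by at least 1 log2 unit against each group and in 28.7% of the 515 windows of genes lower by as much.

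Genes of the STAT5 and interleukin-2 response were mostly higher. The median log2 difference was 1.499 against -0.19 over all genes. Of 21 tested, 16 were higher (76.2%) and 2 lower (9.5%), beside 13.6% and 29.3% of all genes. All 16 and 2 of these calls held under the 4 scalings. Summed over the list, CD3_CD28 libraries held 9115 to 10259 CPM and the other 6 3988 to 4949 CPM. Cish, a STAT5-induced inhibitor of cytokine signalling, was at 421, 468 and 434 CPM in CD3_CD28, 39.7, 65.1 and 40.2 CPM in CD3 and 52.1, 81.01 and 59.6 CPM in CD3_CD28_ICOS, a log2 difference of 2.99 ± 0.18 (SE, limma adjusted p = 6.46e-08). Socs2, of the same family, was at 42.5, 36.5 and 51.7 CPM against 4.53 to 14.9 CPM. Il2ra, the alpha chain of the interleukin-2 receptor, was at 1251, 971 and 1230.4 CPM against 344 to 458 CPM. The other chains did not follow it: Il2rg, the shared gamma chain, was called lower, and Il2rb at 1233, 1148 and 1242 CPM overlapped CD3_CD28_ICOS (963, 1495 and 967 CPM) and was not called.

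Pim1, a kinase induced by STAT5, was at 375, 349 and 426 CPM against 86.2 to 123 CPM, and Osm, oncostatin M, at 55.9, 49.1 and 61.9 CPM against 13.6 to 20.04 CPM. Bcl6, a repressor that STAT5 is known to oppose, was one of the 2 lower members, at 5.06, 6.58 and 4.94 CPM in CD3_CD28, 64.5, 27.9 and 41.1 CPM in CD3 and 108, 87.5 and 117 CPM in CD3_CD28_ICOS, a log2 difference of -3.37 ± 0.21 (SE, limma adjusted p = 7.17e-08). Il2 itself was too low to be tested, at 1.61, 3.48 and 3.33 CPM in CD3_CD28 and at 0.0385 to 0.363 CPM in the other 6. The CD3_CD28 values of Il2 lay above the others all the same.

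The start of Cish is shown as an example of a leading member of that list (RefSeq, GRCm38.p6, plus strand, window as above), with capitals for matches to TTCNNNGAA, the letters of a STAT site, which is its own reverse complement.
Cish (chr9:107296409-107296688): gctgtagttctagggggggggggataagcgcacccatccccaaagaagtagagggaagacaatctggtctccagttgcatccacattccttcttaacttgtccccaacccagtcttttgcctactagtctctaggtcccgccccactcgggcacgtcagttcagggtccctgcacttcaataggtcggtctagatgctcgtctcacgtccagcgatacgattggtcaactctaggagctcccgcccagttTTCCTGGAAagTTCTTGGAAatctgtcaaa
It held 2 matches, beginning at bases 1 and 12 from the start, side by side. A match was present in 6.62% of all windows, in 8.01% of the windows of genes higher by at least 1 log2 unit against each group and in 9.51% of those lower by as much.

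Among secreted cytokines and chemokines, 27 of the 34 listed genes were in the files and 11 were tested. Of the 11, 5 were higher (Il24, Tnf, Lta, Lif and Osm) and 2 lower (Il16 and Ccl22), beside 13.6% and 29.3% of all genes. Tnf was at 35.3, 37.01 and 39.7 CPM in CD3_CD28 against 5.502 to 11.7 CPM. Ccl22, a chemokine that attracts CCR4-bearing cells, went the other way, at 5.100, 2.55 and 1.73 CPM in CD3_CD28, 71.5, 91.4 and 162 CPM in CD3 and 60.6, 57.3 and 96.7 CPM in CD3_CD28_ICOS, a log2 difference of -4.45 ± 0.29 (SE); it passed the filter only through the last 2 groups. Ccr4, its receptor, was higher, at 106, 63.5 and 72.6 CPM against 12.8 to 29.2 CPM.

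Several helper cytokines missed the 10 CPM limit in 3 libraries and were not tested. Il13 was at 29.4, 3.76 and 11.5 CPM in CD3_CD28 and at 0.351 to 1.12 CPM in the other 6. Il5 was at 12.1, 1.21 and 3.57 CPM against 0 to 0.213 CPM, and Il21 at 17.9, 1.39 and 4.88 CPM against 0 to 0.526 CPM. These 3 were chosen after their values were seen, and not every untested member of the list is described. In all 3, replicate 1 was the highest and replicate 2 the lowest CD3_CD28 library, with Il5 and Il21 near the floor in replicate 2. Their CD3_CD28 values lay above the other 6, as did those of 15.5% of all genes tested. Ifng, at 2.42, 0.582 and 1.29 CPM, overlapped the other groups (0.327 to 2.28 CPM).

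TNF superfamily ligands and receptors split. Of 19 tested, 9 were higher (47.4%), 3 lower (15.8%) and 1 between the other groups. Over all genes tested 13.6% were higher and 29.3% lower. All 12 of the list's higher and lower calls held under the 4 scalings. Tnfsf11, the ligand RANKL, was at 40.9, 49.7 and 58.5 CPM against 11.4 to 16.5 CPM. Tnfrsf18, the costimulatory receptor GITR, was at 443, 507 and 457 CPM against 122 to 235 CPM, and Tnfrsf4 and Tnfrsf9 were higher too. Cd27, a costimulatory receptor of resting T cells, was lower, at 48.2, 48.8 and 64.6 CPM against 147 to 298 CPM, a log2 difference of -1.97 ± 0.12 (SE, limma adjusted p = 2.26e-08). Tnfsf10 and Tnfrsf14 were the other lower members.

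Glucose use and hypoxia-inducible genes were higher as groups. Of 20 hypoxia-inducible genes tested, 15 were higher and 0 lower, beside 13.6% and 29.3% of all genes, with a median log2 difference of 1.37. Of the 15, P4ha2 and Nos2 passed the filter only through CD3_CD28, and without them 13 of 18 were higher. Of 22 glycolysis genes, 13 were higher and 1, Eno3, was lower, with a median of 0.92; 12 and 1 of these held under the 4 scalings. Summed CPM of the hypoxia list was 7506 to 8825 in CD3_CD28, 3105 to 3804 in CD3 and 2081 to 4512 in CD3_CD28_ICOS. The top of that last range was replicate 2, which stood apart from its group in these genes.

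Egln3, an oxygen-sensing hydroxylase that is itself hypoxia-inducible, was at 868, 785 and 806 CPM in CD3_CD28, 94.8, 192 and 115 CPM in CD3 and 15.7, 157 and 38.8 CPM in CD3_CD28_ICOS, a log2 difference of 3.39 ± 0.57 (SE, limma adjusted p = 0.000644). P4ha2, a collagen prolyl hydroxylase, was at 78.03, 59.1 and 60.1 CPM against 0.666 to 18.6 CPM. Ndrg1 was at 799.7, 1037 and 784 CPM against 39.3 to 393 CPM, and the angiogenic factor Vegfa at 131, 139 and 128 CPM against 7.62 to 61.8 CPM. In each of these 4 genes the highest of the other 6 values belonged to CD3_CD28_ICOS replicate 2 or CD3 replicate 2, and the lowest to CD3_CD28_ICOS replicate 1. Without CD3_CD28_ICOS replicate 2, 17 of the 20 hypoxia genes and 17 of the 22 glycolysis genes were higher.

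Hk2, the hexokinase that starts glycolysis, was at 454, 455 and 465 CPM in CD3_CD28, 115, 188 and 137 CPM in CD3 and 43.8, 170.4 and 51.9 CPM in CD3_CD28_ICOS. The glucose transporter gene Slc2a1 was at 350.1, 450.3 and 354 CPM against 59.6 to 191 CPM, a log2 difference of 1.72 ± 0.32 (SE, limma adjusted p = 0.00079). Ldha, which makes lactate, was at 1694, 2075 and 1875 CPM against 768 to 1367 CPM. Eno3, the muscle-type enolase, ran against the list at 23.2, 36.5 and 36.4 CPM against 66.2 to 192 CPM, while Eno1 was higher. Txnip, a brake on glucose uptake listed with the quiescence genes, was at 53.6, 69.2 and 70.8 CPM in CD3_CD28, 461, 364 and 479 CPM in CD3 and 434, 779 and 913 CPM in CD3_CD28_ICOS, a log2 difference of -3.06 ± 0.20 (SE, limma adjusted p = 1.5e-07). Of 23 oxidative phosphorylation genes tested, 0 were higher and 5 lower (21.7%), beside 13.6% and 29.3% of all genes. Of the 5, 2 (Ndufa1 and Cox6c) held under the 4 scalings. Pooled, 13 of the 23 were lower, beside 45.0% of all genes, with a median of -0.23 against -0.19.

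Amino acid supply genes and targets of ATF4, a transcription factor of the response to amino acid shortage, were higher in the main. Of 25 tested, 19 were higher and 0 lower, beside 13.6% and 29.3% of all genes, with a median of 1.52. The same number held under the 4 scalings. Of the 19, 7 passed the filter only through CD3_CD28, Trib3, Atf3 and Cth among them. The other 18 members had 12 higher and 0 lower, with a median of 1.26. Trib3, a pseudokinase induced by ATF4, was at 72.8, 81.2 and 72.8 CPM in CD3_CD28, 7.11, 9.87 and 6.86 CPM in CD3 and 7.09, 19.6 and 8.08 CPM in CD3_CD28_ICOS, a log2 difference of 2.92 ± 0.24 (SE). Ddit3, the stress factor CHOP, was at 92.3, 109 and 90.5 CPM against 11.5 to 22.2 CPM. Atf3, also on the list of receptor response factors, was at 72.9, 71.3 and 53.7 CPM against 1.62 to 11.3 CPM. Cth, an enzyme of cysteine synthesis, was at 21.8, 18.9 and 20.00 CPM against 1.23 to 2.47 CPM.

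Asns, asparagine synthetase, was at 134, 148 and 149.98 CPM in CD3_CD28, 45.1, 49.5 and 43.3 CPM in CD3 and 22.6, 14.8 and 11.04 CPM in CD3_CD28_ICOS, a log2 difference of 2.38 ± 0.20 (SE, limma adjusted p = 5.34e-07). Slc7a5, which with Slc3a2 forms a transporter of large neutral amino acids, was at 287, 299.8 and 322 CPM against 134, 143 and 142 CPM in CD3 and 72.9, 35.8 and 37.9 CPM in CD3_CD28_ICOS. In both genes CD3 lay between the other groups. Of 17 chaperone and unfolded protein response genes, 4 were higher (23.5%) and 0 lower, beside 13.6% and 29.3% of all genes. Of the 4, 3 (Xbp1, Herpud1 and Canx) held under the 4 scalings. Xbp1, a factor of that response and on the STAT5 list as well, was at 247, 268 and 275 CPM against 69.1 to 112 CPM.

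The start of Trib3 is shown for that list (RefSeq, GRCm38.p6, minus strand, window as above), with capitals for a match to TGATGNAA on either strand, the letters of a composite C/EBP-ATF site.
Trib3 (chr2:152344031-152344310): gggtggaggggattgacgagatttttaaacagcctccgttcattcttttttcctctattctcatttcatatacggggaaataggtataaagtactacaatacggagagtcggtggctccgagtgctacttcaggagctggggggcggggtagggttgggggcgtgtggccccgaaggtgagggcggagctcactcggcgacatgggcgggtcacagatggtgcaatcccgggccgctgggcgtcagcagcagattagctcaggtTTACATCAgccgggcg
It held 1 match, beginning at base 15 from the RefSeq start. The bases after that start were not found in an annotated transcript of Trib3, so the match may not lie within the transcript. Such a match was present in 2.11% of all windows, in 4.91% of the 387 windows of genes higher by at least 1 log2 unit against each group and in 3.11% of the 515 of genes lower by as much.

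Targets of p53 were higher in part, and cell cycle inhibitors and G1 regulators went both ways. Of 17 tested members of the latter list, 5 were higher (Cdkn1a, Ccnd2, Ccnd3, Cdk6 and Rb1) and 5 lower (Cdkn2c, Cdk2, Rbl1, Rbl2 and E2f2), with a median of -0.30, and 5 and 3 of these held under the 4 scalings. The lower share, 29.4%, was near that of all genes tested (29.3%), and the higher share was 29.4% beside 13.6%. Cdkn1b, another inhibitor, was not called. Cdkn1a, the cyclin-dependent kinase inhibitor p21, was at 274, 248 and 269 CPM in CD3_CD28, 16.7, 22.9 and 14.7 CPM in CD3 and 6.902, 12.04 and 6.07 CPM in CD3_CD28_ICOS, a log2 difference of 4.35 ± 0.18 (SE, limma adjusted p = 2.43e-09). Unstimulated cells held under 1 CPM. Of 18 p53 targets tested, 10 were higher and 3 lower, and all 13 calls held under the 4 scalings. Phlda3, which passed the filter only through CD3_CD28, was at 22.3, 20.1 and 28.6 CPM against 2.17 to 5.001 CPM and Mdm2, which degrades p53, at 119.7, 124 and 121 CPM against 62.6 to 86.7 CPM. Sesn1 was among the lower members, at 24.2, 39.8 and 41.8 CPM against 119.98 to 209.7 CPM, as was Trp53, the gene of p53 itself.

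Proliferation genes leaned lower in the pooled comparison and gave few calls against both groups. Pooled, 15 of 25 mitosis genes and 21 of 29 DNA replication genes were lower, beside 45.0% of all genes, with medians of -0.54 and -0.53 against -0.19. Against both, 0 mitosis genes were higher and 7 lower, near the share of all genes that were lower (29.3%), and 3 of the 7 (Ccnb2, Cdc20 and Birc5) held under the 4 scalings. Of the DNA replication genes 0 were higher, 3 lower and 3 between the other groups, a lower share of 10.3% beside 29.3% of all genes. Of the 29, 4 passed the filter through 1 side only, and 2 of the 3 lower genes were among them. The other 25 members had 0 higher and 1 lower. Mki67, a marker of dividing cells, was at 609, 1058 and 908 CPM in CD3_CD28, 1637, 1629 and 1677 CPM in CD3 and 1283, 1415 and 955 CPM in CD3_CD28_ICOS, overlapped the last group and was not called. Tyms, thymidylate synthase, was lower at 6.46, 7.83 and 10.04 CPM against 15.4 to 43.7 CPM. The G1 cyclin gene Ccnd3 and the kinase gene Cdk6 were higher, Cdk6 at 485, 371 and 538 CPM against 235, 189 and 211 CPM in CD3 and 76.98, 49.97 and 61.7 CPM in CD3_CD28_ICOS. Ribosomal protein genes were higher by small amounts, 13 of 20 with 0 lower and a median of 0.34, beside 13.6% of all genes higher.

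Genes of the BCL2 family went both ways, 5 of 14 higher and 4 lower, a lower share near that of all genes (29.3%). Bcl2l1, which encodes the pro-survival protein BCL-XL, was at 186, 232 and 205 CPM in CD3_CD28, 29.7, 37.1 and 37.5 CPM in CD3 and 60.04, 46.9 and 43.9 CPM in CD3_CD28_ICOS, a log2 difference of 2.29 ± 0.11 (SE, limma adjusted p = 4.93e-09). Bcl2 was at 432, 417 and 475 CPM against 102 to 173 CPM, and Bcl2l2 was higher too. Bcl2l11, which encodes the pro-death protein BIM, was at 45.2, 57.5 and 47.5 CPM against 209 to 364 CPM, a log2 difference of -2.37 ± 0.13 (SE, limma adjusted p = 2.08e-08). The pro-death gene Bid was lower too, while the pro-death genes Bax and Bbc3 were higher and the pro-survival copies Bcl2a1b and Bcl2a1d lower. Bcl2a1b and Bcl2a1d are near-identical copies, so reads may be split between them.

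Gzmb, which encodes the cytotoxic protease granzyme B, was abundant in CD3_CD28 at 1298, 1669 and 1769 CPM, with 313, 533 and 377 CPM in CD3 and 45.6, 71.3 and 30.6 CPM in CD3_CD28_ICOS. Its log2 differences were 1.97 from CD3 and 5.05 from CD3_CD28_ICOS. Serpinb6b, of the serpin family of protease inhibitors, was at 759, 870.02 and 815 CPM against 114 to 194 CPM, a log2 difference of 2.55 ± 0.12 (SE, limma adjusted p = 4.61e-09). Of 11 tested genes of the list of cytotoxic granules and serpins, 4 were higher (36.4%) and 3 lower (27.3%). Over all genes tested these shares were 13.6% and 29.3%, so the lower share was near that of all genes. Under the 4 scalings the 4 higher calls and 1 lower call, that of Nkg7, held.

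**Figure D3:**
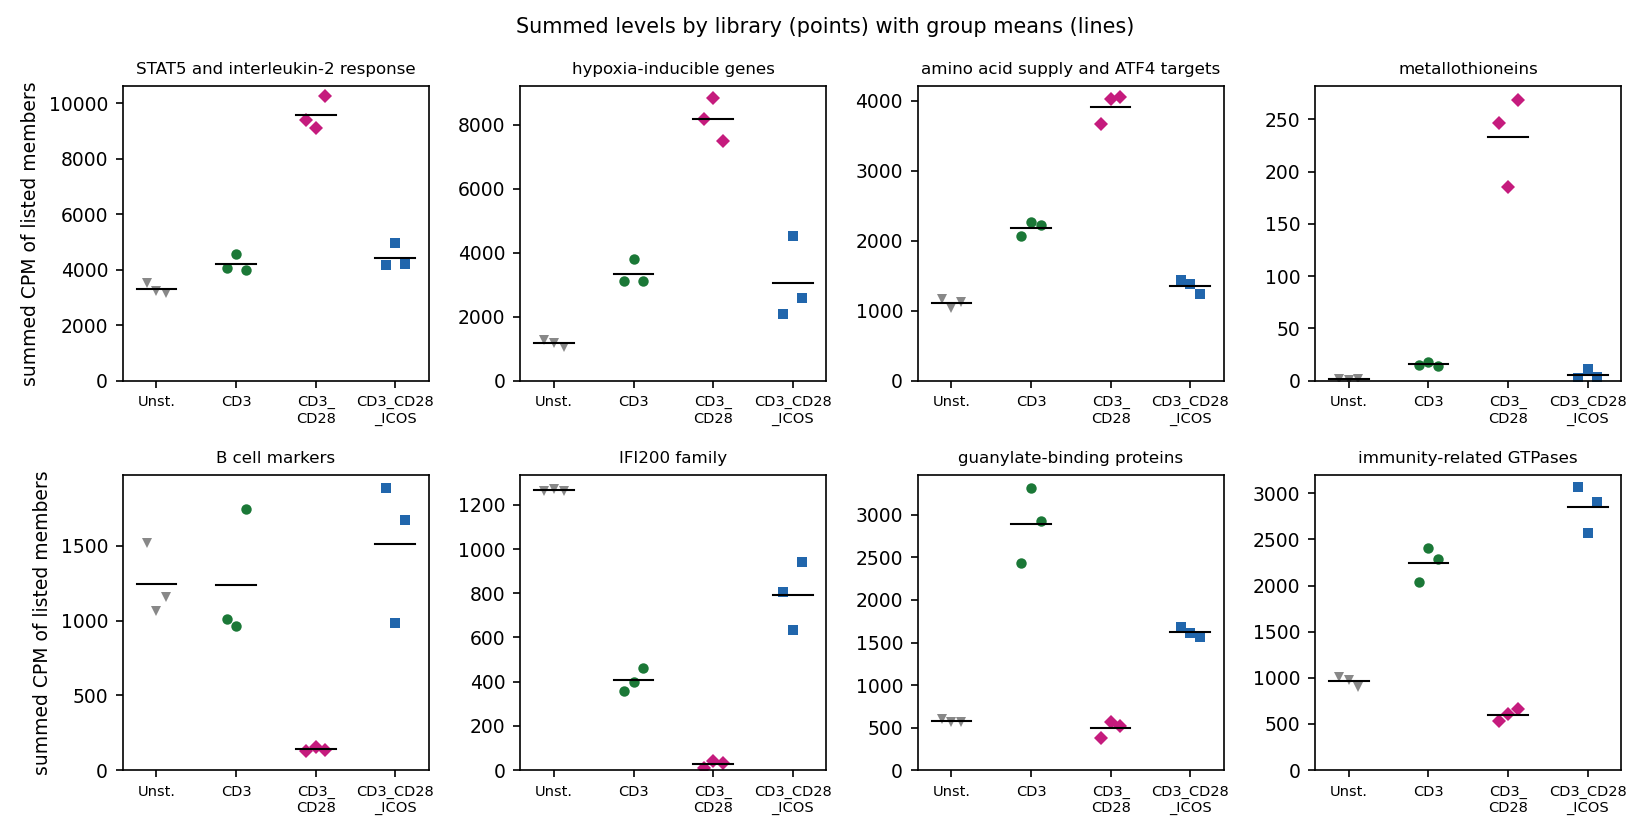
Summed CPM of the listed members of 8 gene groups by library, with a line at each group's mean; each axis starts at 0 and has its own scale. The 4 upper panels are highest in CD3_CD28 and the 4 lower panels lowest there among the stimulated groups, with B cell markers at 125 to 155 CPM in CD3_CD28 and 965 to 1883 CPM in the other 6 stimulated libraries.

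The largest lower differences included genes of B cells. Named here are 13 of the 14 of the naming rule, Wdfy4, Cd22, Ms4a1, Mef2c, Fcer2a, Ciita, Cd79a, Pax5, Cybb, Ifi209, Iigp1, H2-Aa and Serpina3f, of which Cd22, Ms4a1, Fcer2a, Cd79a and Pax5 are on the B cell list. At least Mef2c and Serpina3f of these passed the filter only through CD3 and CD3_CD28_ICOS. Pax5, the transcription factor of B cell identity, was at 0.659, 0.895 and 0.5099 CPM in CD3_CD28, 47.6, 50.4 and 102 CPM in CD3 and 80.6, 30.3 and 62.8 CPM in CD3_CD28_ICOS, a log2 difference of -5.13 ± 0.32 (SE, limma adjusted p = 1.7e-07). Its highest values were in CD3 replicate 3 and CD3_CD28_ICOS replicates 1 and 3.

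All 13 listed B cell markers were tested and all 13 were lower in CD3_CD28, with a median of -4.12; 12 held under the 4 scalings, Cr2 being the exception. Of the 13, 3 passed the filter only through CD3 and CD3_CD28_ICOS, and the other 10 had a median of -4.63. Without Ighm, the most abundant, they summed to 9.98 to 14.8 CPM in CD3_CD28, 421 to 911 CPM in CD3, 289 to 787 CPM in CD3_CD28_ICOS and 192 to 336 CPM in Unstimulated cells. No marker was at 0 in all 3 CD3_CD28 libraries, and Cr2 was at 0 in replicate 1. Ighm, the immunoglobulin heavy chain, was at 109.7, 145 and 123 CPM in CD3_CD28 against 520.1 to 1096 CPM. In bulk RNA, fewer cells of a type and less RNA per cell cannot be told apart. Markers of the other cell types were low in all stimulated libraries: the 13 myeloid markers summed to 15.4 to 19.4 CPM in CD3_CD28 and 14.8 to 74.5 CPM in the other 6, and the 10 CD8 and NK cell markers to 55.9 to 104 and 93.5 to 194 CPM. Of the 9 myeloid markers tested, 2 were lower, Cd68 was higher and 6 were not called. Mpeg1, a gene of macrophages and B cells, was among the lower ones (-4.43 ± 0.39). Of the 5 CD8 and NK cell markers tested, Cd8a and Klrk1 were lower. Cd8a was at 1.71, 1.52 and 1.49 CPM against 7.55 to 46.6 CPM, while Cd8b1, its partner chain, was not called. Cd68, Cd8a and Klrk1 passed the filter only through the side where they were high.

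Another 15 genes stayed under 1 CPM in every CD3_CD28 library and reached 10 CPM in all 6 others: Bank1, Blnk, Cd22, Ciita, Cybb, Il4i1, Lyn, Mef2c, Ms4a1, Napsa, Pax5, Rasgrp3, Slc28a2b, Themis2 and Wdfy4. Of these, 4 are on the B cell list, and others are known B cell or antigen-presenting cell genes, such as Blnk, an adaptor of the B cell receptor, and Lyn, a kinase of that receptor. Of the 15, Blnk, Il4i1, Mef2c, Napsa, Rasgrp3 and Themis2 passed the filter only through CD3 and CD3_CD28_ICOS. Their part in the differences of other genes was not tested.

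MHC class II genes, which present antigen and are made by B cells, were lower in part. Of the 10 tested members of a set chosen after the values were seen, 6 were lower, beside 29.3% of all genes. Ciita, the master activator of class II, was at 0.308, 0.0895 and 0.157 CPM in CD3_CD28 against 25.5 to 87.1 CPM. H2-Aa, the alpha chain of the I-A molecule, was at 5.63, 5.37 and 3.69 CPM in CD3_CD28, 116, 117 and 242 CPM in CD3 and 269.6, 82.5 and 218 CPM in CD3_CD28_ICOS, a log2 difference of -4.78 ± 0.38 (SE, limma adjusted p = 2.67e-06). H2-Ab1, its partner beta chain, was at 148, 128 and 112 CPM in CD3_CD28 and 122 to 247 CPM in the other 6, overlapped them and was not called. H2-Eb1 was lower at 56.6, 56.1 and 60.4 CPM against 83.7 to 234 CPM.

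**Figure D4:**
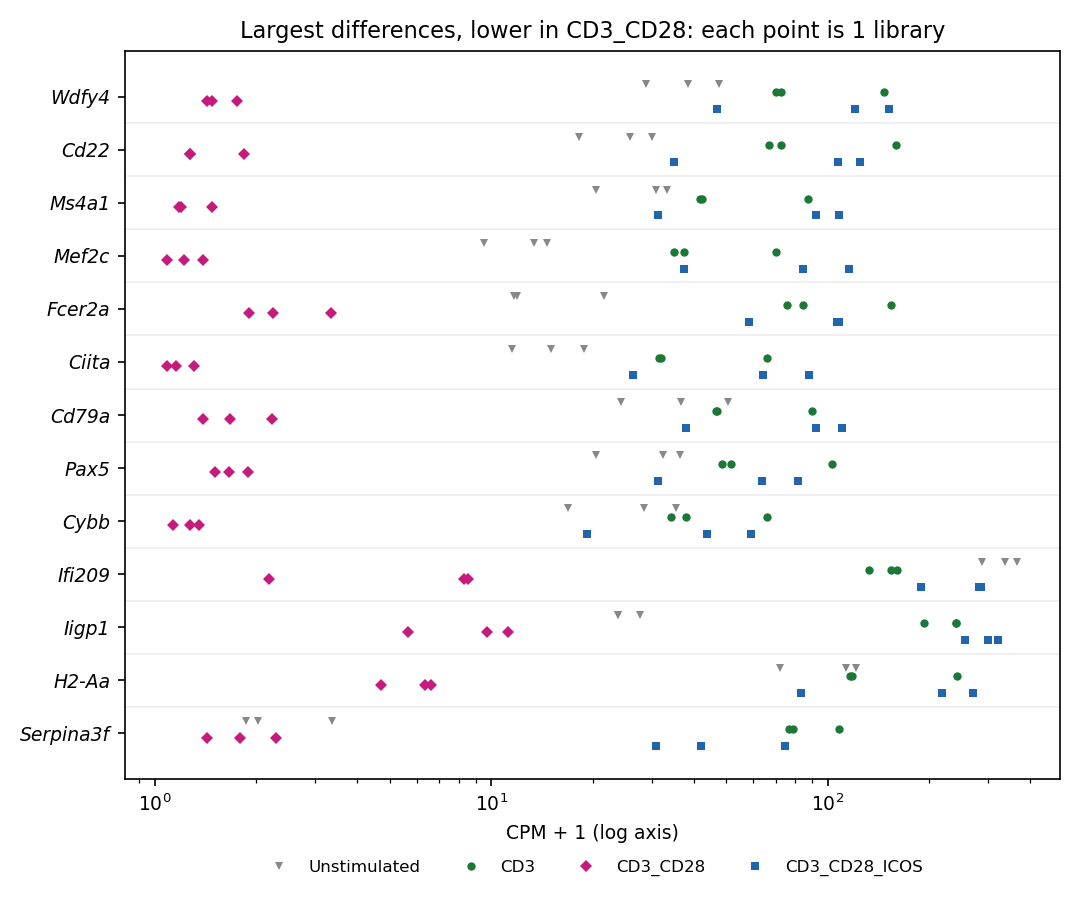
CPM + 1 on a log axis of 13 genes with the largest lower differences, 1 point per library, with the 4 groups in separate rows within a gene. The CD3_CD28 points lie left of the 6 points of the other stimulated groups in each gene, as the naming rule required. For the B cell genes the CD3_CD28_ICOS points spread widely, with replicate 2 lowest.

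Interferon-induced genes were lower as well, together with the B cell markers given above. Of 21 interferon-stimulated genes tested, 11 were lower and 1, Bst2, was higher, beside 29.3% and 13.6% of all genes. The median was -1.32, and 10 and 1 of the calls held under the 4 scalings. Without CD3_CD28 replicate 1 the median was -0.87, with 10 lower. Irf1, a transcription factor induced by interferon, was at 95.1, 118 and 122 CPM in CD3_CD28, 274, 357 and 366 CPM in CD3 and 375, 382 and 400.1 CPM in CD3_CD28_ICOS, a log2 difference of -1.67 ± 0.10 (SE, limma adjusted p = 2.51e-08). The CD3_CD28 values lay below all of the others.

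Families of interferon-induced genes, chosen after the values were seen, were lower nearly throughout, beside 29.3% of all genes tested. Of the 9 tested guanylate-binding proteins, GTPases of cell-intrinsic defence, 8 were lower with the 3 CD3_CD28 values below the other 6, and all 8 held under the 4 scalings. Over all genes tested, the 3 CD3_CD28 values lay below the other 6 in 31.3%. Gbp5 was the one not called. Gbp10, a lower one, passed the filter only through CD3 and CD3_CD28_ICOS, so being high there was a condition of its being tested. Gbp2 was at 148, 194 and 189 CPM in CD3_CD28, 1337, 1857 and 1515 CPM in CD3 and 658, 620.4 and 493 CPM in CD3_CD28_ICOS, a log2 difference of -2.43 ± 0.12 (SE, limma adjusted p = 6.05e-09). The sum of the family was 381 to 565 CPM in CD3_CD28 and 1564 to 3320.1 CPM in the other 6. Gbp4, Gbp8 and Gbp9 overlap in the coordinates the files give, so their reads may be shared.

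All 7 immunity-related GTPases were lower. Iigp1 was at 4.66, 8.68 and 10.2 CPM in CD3_CD28, 193, 239 and 239.6 CPM in CD3 and 319, 255 and 298 CPM in CD3_CD28_ICOS, a log2 difference of -4.91 ± 0.18 (SE, limma adjusted p = 1.56e-09). Both other groups lay well above Unstimulated cells (26.6, 22.7 and 22.9 CPM), and CD3_CD28 lay below them. Igtp, which overlaps Irgm2 in the files' coordinates, was at 265, 284 and 313 CPM against 577 to 874 CPM. Tgtp1 and Tgtp2 are near-identical copies.

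The IFI200 family, DNA-binding proteins encoded side by side on chromosome 1, was lower in all 8 tested members, with a median of -3.40; 7 held under the 4 scalings. Its sum was 1260.2 to 1271 CPM in Unstimulated cells, 356 to 463 CPM in CD3, 636 to 942 CPM in CD3_CD28_ICOS and 8.31 to 41.7 CPM in CD3_CD28, so all 3 stimulations lay below fresh cells and CD3_CD28 lay lowest. Ifi209 (chromosome 1, 173630917 to 173647929 of mm10) was at 1.19, 7.31 and 7.504 CPM in CD3_CD28, 159, 131 and 154 CPM in CD3 and 280.3, 188 and 284 CPM in CD3_CD28_ICOS, a log2 difference of -5.16 ± 0.38 (SE, limma adjusted p = 1.55e-06). CD3_CD28 replicate 1 was the lowest, and without it the log2 difference was -4.51. Ifi203 was at 2.68, 13.2 and 9.92 CPM against 96.8 to 306 CPM, again lowest in replicate 1. The members are similar in sequence, so reads may be shared among them. Ifi211 passed the filter only through CD3 and CD3_CD28_ICOS, so being high there was a condition of its being tested.

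Follicular helper genes were lower, with 10 of 13 lower (76.9%), 2 higher (15.4%) and a median of -1.44. Over all genes tested these shares were 29.3% and 13.6%, so the higher share was near that of all genes. Besides Bcl6, Slamf6 was at 12.7, 22.02 and 19.6 CPM in CD3_CD28 against 166 to 250.5 CPM, a log2 difference of -3.49 ± 0.16 (SE, limma adjusted p = 4.92e-09), and Pdcd1, the inhibitory receptor PD-1, at 11.9, 9.94 and 13.5 CPM against 22.1 to 70.3 CPM. Cxcr5, the receptor that guides cells to follicles, was at 7.17, 13.02 and 8.63 CPM against 23.4 to 62.5 CPM. Pou2af1, a coactivator that B cells also make, was at 4.75, 9.89 and 11.6 CPM in CD3_CD28, 341, 227 and 314 CPM in CD3 and 129.6, 37.7 and 83.2 CPM in CD3_CD28_ICOS. Bcl6, Cxcr5 and Pou2af1 are also genes of B cells, whose markers moved the same way. Icos ran against the list, at 230.1, 216 and 253 CPM in CD3_CD28, 90.2, 87.2 and 79.05 CPM in CD3 and 148, 139.6 and 142 CPM in CD3_CD28_ICOS, a log2 difference of 1.07 ± 0.09 (SE, limma adjusted p = 3.97e-07), as did Cd200. Under the 4 scalings 8 lower and 2 higher calls held.

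Naive and quiescence genes were lower in 13 of 22 (59.1%), with 1 higher (4.5%), beside 29.3% and 13.6% of all genes tested. Of the 13, 10 held under the 4 scalings. Klf2, a transcription factor of resting T cells, was at 15.7, 24.7 and 24.7 CPM in CD3_CD28 against 88.3 to 184 CPM. Tcf7, which encodes TCF1, a factor of naive and memory cells, was at 329.8, 485 and 411 CPM in CD3_CD28, 837, 664 and 777 CPM in CD3 and 1906, 1774 and 1996 CPM in CD3_CD28_ICOS, a log2 difference of -1.56 ± 0.11 (SE, limma adjusted p = 1.06e-07). CD3_CD28_ICOS was closest to the Unstimulated level of 2368, 2411 and 2037 CPM. Il7r, the interleukin-7 receptor, was the 1 higher member, at 229, 184 and 187 CPM against 58.3 to 133 CPM, while Unstimulated cells held 966, 667 and 535 CPM.

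Of 12 TH1 genes, 7 were lower and 3 higher, beside 29.3% and 13.6% of all genes tested, and 5 and 3 held under the 4 scalings. Of the 7, 2 passed the filter through 1 side only. The other 10 members had 5 lower and 3 higher. Tbx21, which encodes the TH1 factor T-bet, was at 25.4, 18.04 and 21.8 CPM in CD3_CD28 against 35.8 to 61.9 CPM, a log2 difference of -1.15 ± 0.18 (SE, limma adjusted p = 8.56e-05). Il18r1, a chain of the interleukin-18 receptor, was at 0.703, 2.06 and 2.08 CPM against 8.07 to 20.8 CPM. Il12rb2, a chain of the interleukin-12 receptor, was higher instead, at 514, 470.1 and 472 CPM in CD3_CD28, 118, 89.5 and 74.1 CPM in CD3 and 208, 305 and 242 CPM in CD3_CD28_ICOS. Gata3, the TH2 factor, was at 204, 144 and 169.8 CPM in CD3_CD28, 47.3, 55.4 and 46.7 CPM in CD3 and 138, 230.1 and 159.98 CPM in CD3_CD28_ICOS, above CD3 (1.76 log2 units) and not called against both.

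Of 23 transcription factors that respond to the receptor, 4 were higher (17.4%), 3 lower (13.0%) and 1 between the other groups. Over all genes tested 13.6% were higher and 29.3% lower, so the higher share was near that of all genes. The other 15 were not called, as were 5338 of all 9826 genes. Irf4, whose level follows receptor signal strength, was at 719, 533 and 662 CPM in CD3_CD28, 381, 367 and 335 CPM in CD3 and 165, 158 and 136 CPM in CD3_CD28_ICOS, a log2 difference of 1.43 ± 0.13 (SE, limma adjusted p = 7.12e-07). Bhlhe40, also on the hypoxia list, was at 1010.1, 1208 and 937 CPM against 149.96 to 283 CPM, and the AP-1 subunit gene Fosl2 at 266, 322 and 226 CPM against 38.9 to 107 CPM. Of the other AP-1 genes, Fos and Jun overlapped the other groups and were not called. Junb at 411, 472 and 412 CPM lay above the other 6 (220.2 to 296 CPM) and was not called either (limma adjusted p = 0.284); Unstimulated replicate 3, at 1790 CPM, is part of the spread behind that test.

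Nfatc1, which encodes NFAT2, the factor named in the title of the series, was at 219, 273 and 283 CPM in CD3_CD28, 489.8, 443 and 408 CPM in CD3 and 351, 309 and 362 CPM in CD3_CD28_ICOS. It was called lower (-0.60 ± 0.09), and with median of ratios scaling it was not. Cd28 was at 420.4, 509 and 467 CPM against 529 to 664 CPM, also called lower (-0.37 ± 0.09); that call was lost with median of ratios or quantile scaling and without CD3_CD28 replicate 1 or CD3_CD28_ICOS replicate 2. Of 18 genes of T cell identity and receptor signalling, 8 were lower (44.4%) and 1 higher (5.6%), beside 29.3% and 13.6% of all genes. Cd3e, a chain of the receptor complex, was at 177, 224 and 212 CPM against 363 to 419.9 CPM, and its call held under the 4 scalings, as did those of Cd3g and Ptprc.

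Of 13 regulatory T cell genes tested, 5 were higher (Il2ra, Ikzf4, Tnfrsf18, Gpr83 and Capg), 0 lower and 1 between the other groups. Over all genes tested 13.6% were higher and 29.3% lower. The median of the list was 0.38, and the 5 held under the 4 scalings. Foxp3, the defining factor of these cells, was lowest in CD3_CD28 at 2.86, 4.53 and 5.22 CPM, against 14.8, 5.68 and 7.65 CPM in CD3 and 106, 18.2 and 55.4 CPM in CD3_CD28_ICOS, and was not called against both.

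**Figure D5:**
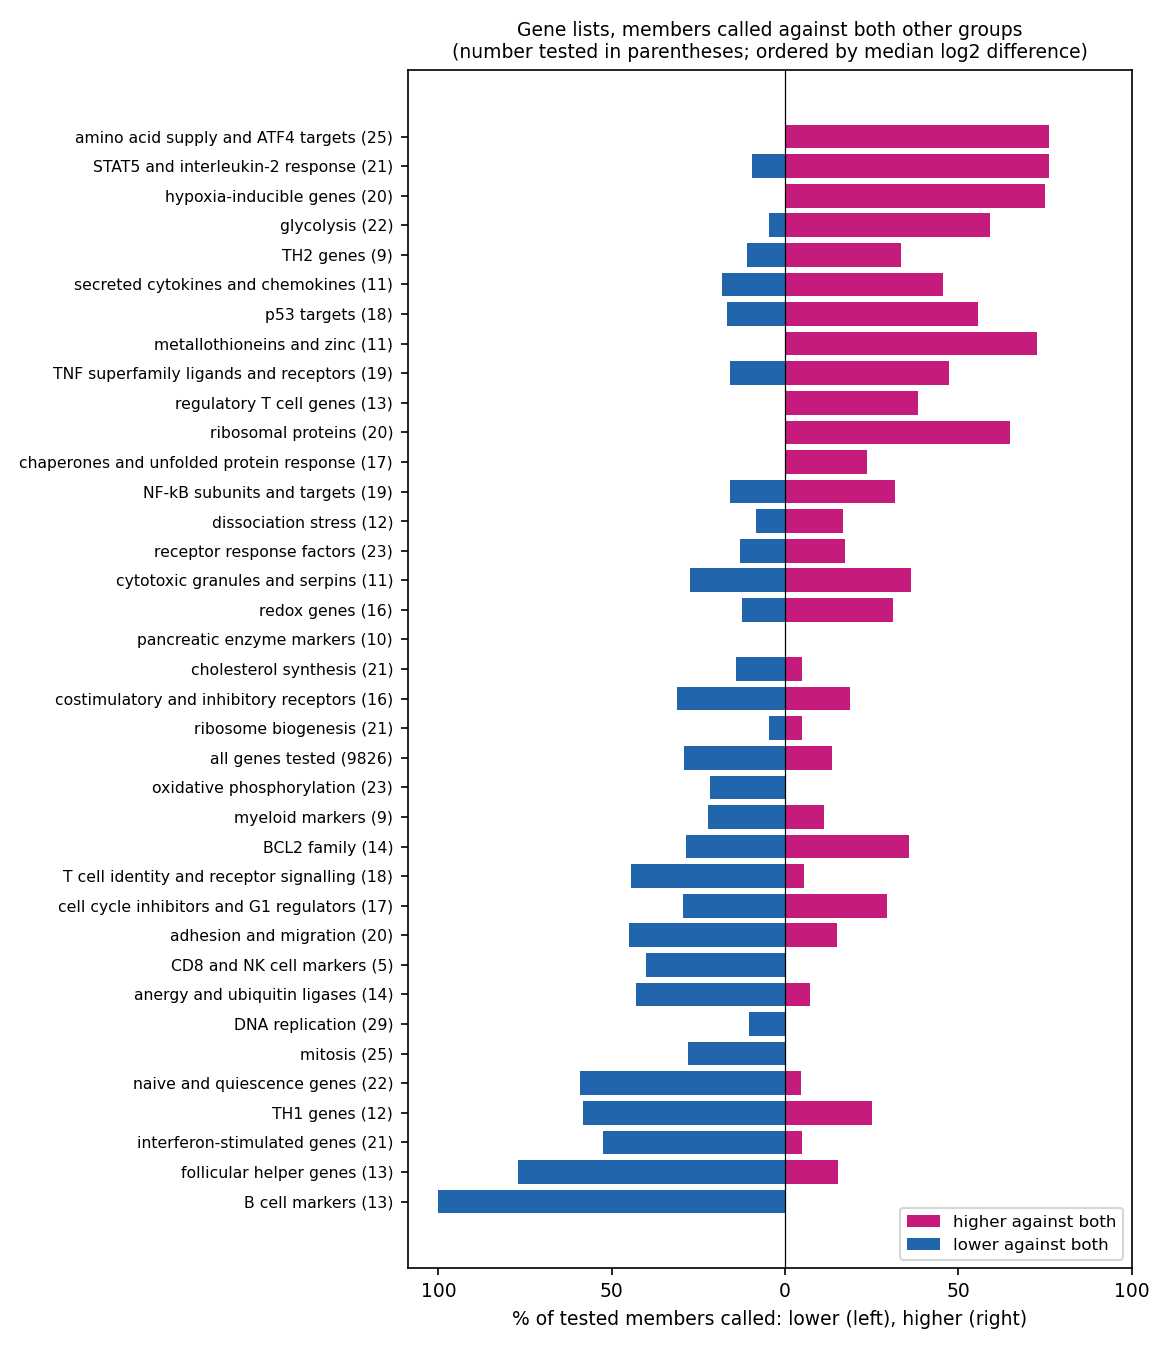
Share of the tested members of each gene list (number in parentheses) that were called lower (left) or higher (right) against both other stimulated groups, ordered by the median log2 difference, for lists with at least 5 tested members. All genes tested stand at 13.6% higher and 29.3% lower; B cell markers are at the bottom with 13 of 13 lower, and the amino acid list is at the top with 19 of 25 higher.

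Fresh cells gave a reference outside these 9 libraries, although culture for 72 h and stimulation cannot be told apart there. Markers of other tissues also stood high in the Unstimulated libraries: the pancreatic enzyme markers summed to 456 to 2325 CPM, against 0.453 to 1.85 CPM in stimulated cells, the myeloid markers to 235 to 589 CPM and the erythroid and platelet markers to 111 to 207 CPM. All 10 tested pancreatic genes were called lower in CD3_CD28 than in Unstimulated cells, and the part of these tissues in the following counts was not tested. CD3_CD28 was called higher than Unstimulated in 3545 genes (36.1%) and lower in 3846 (39.1%). The mean of the other stimulated groups was called higher than Unstimulated in 4072 (41.4%) and lower in 2565 (26.1%). Of the 1338 genes higher in CD3_CD28 than in both other groups, 1140 were also above Unstimulated, 50 below and 148 not called. The mean of the other groups was above Unstimulated in 723 of the 1338, below in 255 and not called in 360. These comparisons share libraries with the one that chose the genes. Lta and Il7r were examples in which the other groups lay at or below fresh cells.

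Of the 2876 lower genes, CD3_CD28 was below Unstimulated in 2153, above in 246 and not called in 477. The mean of the other groups was above Unstimulated in 989, below in 903 and not called in 984. Iigp1 and Serpina3f, a serpin gene, were examples raised in the other groups: Serpina3f was at 2.35, 1.02 and 0.869 CPM in Unstimulated cells, 0.791, 1.298 and 0.431 CPM in CD3_CD28, 77.7, 75.99 and 107 CPM in CD3 and 73.8, 29.8 and 41.1 CPM in CD3_CD28_ICOS. Serpina3f passed the filter only through the last 2 groups, so being high there was a condition of its being tested. CD3 and CD3_CD28_ICOS themselves differed in many genes, with 2824 higher in CD3 (28.7%) and 1859 lower (18.9%). Among the 1338 higher genes no difference between them was called in 898, and among the 2876 lower genes in 1766.

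The authors' deposited table of their own pairwise comparisons held 581 tested genes higher in CD3_CD28 than in both other groups and 1107 lower at a false discovery rate of 0.05. Of these, 578 and 1102 were also called here (99.5% of each of the authors' lists). They made up 43.2% of the higher and 38.3% of the lower calls made here.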

How the data were processed

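The members and gene lists were chosen with earlier results of these data known. RNA of 12 libraries from mouse CD4+ T cells was sequenced. Per the submitters' processing notes, the authors used Partek version 10, DESeq2 and the build mm10. Their aligner, counter, annotation and use of strand: not given in the sources used here. The deposited CPM values carry an offset of 1e-04 in each cell, found from the column sums and removed. Each per-sample column matched a label, and 0 went unused. Of the low values, 76.4 to 81.4% were whole multiples of 1 read within 0.02, so reads were not recovered and no count test was run. Depth was read from those steps. CPM is not corrected for length, and a dominant gene in 1 library depresses all its other values. The authors' deposited table holds p-values, false discovery rates and log2 ratios, per the file headers, and lacks values for 15 tested genes.

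The filter left 9826 genes, reaching 10 CPM in 3 or more libraries. These were fitted on log2(CPM + 1) in limma 3.58.1 (R 4.3.3) with 1 mean per group over the 12 libraries, trend and robust options on, and two-sided p-values were adjusted by Benjamini-Hochberg. The fit was tested on simulated data. By the naming rule, genes were the 14 higher and 14 lower called ones with the largest smaller-of-both difference. They needed CD3_CD28 values all above or below the other 6 and a higher side at or over the median of that quantity. Predicted and clone-named genes, immunoglobulin and receptor segments, ribosomal pseudogenes and histones were left out. Up to 4 called members of each of the 38 lists (547 of 648 genes tested) and a fixed set of T cell genes were named as well. Further list members, the genes under 1 CPM on 1 side and 5 families were chosen after their values were seen. Motifs were searched in RefSeq windows of 280 bases. Results for 4 of the genes so chosen are not reported here.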

Additional observations from a re-analysis of the deposited data

How the results depend on the processing

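Counts of calls depended on the filter and on scaling. With a filter of 50 CPM, which tests fewer genes, calls against both were 796 higher and 1592 lower; pooled calls were 1219 and 2400, those against CD3 1115 and 2400, those against CD3_CD28_ICOS 1336 and 2127 and those against Unstimulated 1924 and 2087. The other groups' mean against Unstimulated then gave 2181 and 1456, and CD3 against CD3_CD28_ICOS 1508 and 1224. With no filter, 6595 genes were lower in CD3_CD28 and 4446 in the other groups' mean than in Unstimulated. Median of ratios gave 2351 and 1733 calls against both, 3478 and 2905 pooled, 3153 and 2807 against CD3 and 3605 higher against CD3_CD28_ICOS. Quantile normalization gave 2882 higher against CD3 and 3889 lower in the other groups' mean than in Unstimulated; the cause of these moves was not tested. Other settings, among them pseudocounts of 0.1 and 5 and each library left out, kept every count within 1.5 times; leaving 1 out gave 1089 to 1379 higher and 2333 to 2980 lower calls against both. No pooled difference of a named gene changed sign past its threshold. Of 138 named called genes, 126 kept their call under median of ratios and 127 under quantile normalization. Same-numbered libraries correlated at -0.0998 to 0.408, over 0.1 in 5 of 9 pairs, and a library correlated best with its own number in 14 of 18 comparisons with another group. The labels do not say what a number marks, so the libraries were not taken as paired, and a shared source cannot be told from these values; with the replicate block the calls were 1344 and 2823. The lowest depth, 11.4 in units of 1000000 reads in CD3 replicate 1, limits precision for genes near 1 CPM.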
